A study of Mus musculus with 4 samples.

Results

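Expression of 10 glycolysis and hypoxia-responsive genes was compared between wild-type (WT) and *Spen* knockout (KO) mouse embryonic stem cells (mESCs). The genes were chosen by name, as glycolytic genes and targets of the hypoxia-inducible factor HIF. Earlier results of these data were known when they and the lists of related genes below were chosen. Shares called in them may therefore not be independent of the values. All 10 genes were among the 37310 genes of the count table. They are *Hif1a*, *Slc2a1*, *Slc2a3*, *Hk1*, *Hk2*, *Pfkl*, *Aldoa*, *Eno1*, *Ldha* and *Pdk1*. RNA was sequenced after depletion of ribosomal RNA in 2 libraries per group. Both groups come from the HATX line, which carries a doxycycline-inducible *Xist* transgene, has a mixed genomic background and was grown in serum with LIF on gelatin, with no treatment given in the labels. The WT group is the parental HATX line, and the KO group is clone 2 of a *Spen* deletion in that line. The study describes the cells as haploid, which the counts do not check. Spen is an RNA-binding co-repressor that *Xist* needs for X inactivation. The KO group is a single clone, so any other difference between the clone and the WT line is part of each comparison, and the labels do not say whether the libraries came from separate cultures. The p-values therefore measure the spread between these libraries, which may be technical.

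Glycolysis takes up glucose through transporters of the Slc2a family, splits it in a chain of cytosolic enzymes and ends in pyruvate, which lactate dehydrogenase can turn into lactate. HIF is a pair of an oxygen-labile alpha subunit, such as Hif1a, and a stable partner, Arnt. In normal oxygen, Egln prolyl hydroxylases mark the alpha subunit for Vhl-dependent destruction, so its activity is set largely by protein stability and not by its own RNA. When it is stable, HIF binds the core letters ACGTG or GCGTG near its targets, which include genes of glucose uptake, most glycolytic enzymes and *Pdk1*. Mouse ES cells use both glycolysis and respiration, and glycolysis is known to gain weight as they leave the naive state.

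The letters that HIF recognises are shown for 4 of the genes because 3 of them (*Slc2a1*, *Pfkl* and *Ldha*) had lower RNA in the KO libraries and the other, *Hk2*, an equally well known target, did not. Each sequence is the 250 bases before a RefSeq transcript start on build GRCm38.p6, and capitals mark ACGTG or GCGTG on either strand.
Slc2a1, chr4:119108495-119108744 (plus strand): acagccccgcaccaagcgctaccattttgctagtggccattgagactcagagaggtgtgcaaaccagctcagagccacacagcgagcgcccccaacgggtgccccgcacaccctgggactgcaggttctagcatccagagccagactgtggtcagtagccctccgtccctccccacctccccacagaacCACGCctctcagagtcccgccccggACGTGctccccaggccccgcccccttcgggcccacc
Pfkl, chr10:78009808-78010057 (minus strand): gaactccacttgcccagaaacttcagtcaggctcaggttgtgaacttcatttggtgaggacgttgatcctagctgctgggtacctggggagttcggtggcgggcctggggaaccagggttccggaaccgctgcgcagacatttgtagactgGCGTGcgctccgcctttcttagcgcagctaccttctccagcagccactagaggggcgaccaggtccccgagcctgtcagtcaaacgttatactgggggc
Ldha, chr7:46845554-46845803 (plus strand): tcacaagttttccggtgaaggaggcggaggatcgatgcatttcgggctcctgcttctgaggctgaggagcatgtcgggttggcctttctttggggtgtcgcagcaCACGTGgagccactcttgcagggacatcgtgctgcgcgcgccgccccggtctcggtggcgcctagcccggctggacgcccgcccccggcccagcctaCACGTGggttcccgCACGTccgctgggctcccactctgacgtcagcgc
Hk2, chr6:82774455-82774704 (minus strand): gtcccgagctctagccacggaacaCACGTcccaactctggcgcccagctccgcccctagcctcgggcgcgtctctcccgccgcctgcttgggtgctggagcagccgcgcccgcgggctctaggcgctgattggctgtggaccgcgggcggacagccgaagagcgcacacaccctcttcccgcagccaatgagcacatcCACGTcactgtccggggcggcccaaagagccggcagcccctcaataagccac
RefSeq windows were found for 9 of the 10 genes, with 16 windows in all, and *Slc2a3* had no entry. ACGTG was present in 6 of the 16 windows and GCGTG in 8, while 16.6% and 28.2% of all 32851 windows of this length held them. At least 1 of the 2 cores was in 13 of the 16 windows, against 38.6% of all windows. Windows of a gene can overlap, so they are not independent. The *Ldha* window shown held 5 ACGTG matches, of which 4 come from 2 palindromes CACGTG that count on both strands, while the other *Ldha* window held 0 ACGTG and 1 GCGTG. *Hk2* held 2 ACGTG matches, *Slc2a1* 1 ACGTG and 1 GCGTG, and *Pfkl* 1 GCGTG. Among windows not shown, those of *Eno1*, also lower in KO libraries, held 0 ACGTG and 1 or 2 GCGTG matches. *Hif1a* held 3 ACGTG matches, *Aldoa* windows 0 or 1, and *Hk1* and *Pdk1* windows 0. A match describes letters and not binding.

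Total counts ranged from 36667685 to 61908422 per library, and each of the 10 genes had at least 680 counts in each library, so counting error is small. *Spen* itself had a log2 fold change of 1.05 ± 0.21 (SE), higher in the libraries labelled KO, with a DESeq2 adjusted p of 7.7e-06. The level of *Spen* RNA alone therefore does not check the deletion, and directions below follow the labels. ES cell markers summed to between 82721 and 89207 normalized counts per kilobase of exon in all 4 libraries, with 1 of 9 higher and 1 of 9 lower at an adjusted p under 0.05. Markers of other cell types moved with the groups. Mesoderm markers summed to 352 and 364 in WT and 117 and 122 in KO libraries (3 of 4 tested lower), primitive endoderm markers to 117 and 124 against 57.3 and 47.8 (2 of 4 lower), and trophoblast markers to 103 and 96.1 against 23.3 and 18.3 (2 of 3 lower). Fibroblast markers summed to 75.9 and 89.3 against 215 and 251, with *Thy1* the 1 of 4 that was higher while *Lum*, like the trophoblast marker *Elf5*, was at 0 in both KO libraries. Neuroectoderm markers summed to 4347 and 4333 against 4064 and 4249 (1 of 3 lower). No list had a member at 0 in all 4 libraries. The part of these cells in the results below was not tested, and in bulk RNA fewer cells of a type and less RNA per cell cannot be told apart.

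Of the 10 genes, 5 were lower and 1 was higher in the KO libraries at an adjusted p under 0.05, and 4 did not pass. The lower genes were *Slc2a1*, *Eno1*, *Pfkl*, *Slc2a3* and *Ldha*, and the higher gene was *Aldoa*. Over all 17710 genes tested, 15.8% were lower and 16.4% higher at this threshold, 32.3% in all. Among the 6988 genes with a mean of at least 1000 normalized counts, which 9 of the 10 genes reach, 49% passed. At the study's own threshold of a 2-fold change and an adjusted p under 0.001, *Slc2a1* was the 1 member called, where 4.51% of all genes were called, 3.15% lower and 1.36% higher. The median log2 fold change of the 10 genes was -0.21, against 0.0049 for all genes tested. In 8 of the 10 genes the normalized counts of the 2 groups did not overlap, which was true of 70.2% of all genes tested.

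**Figure D1:**
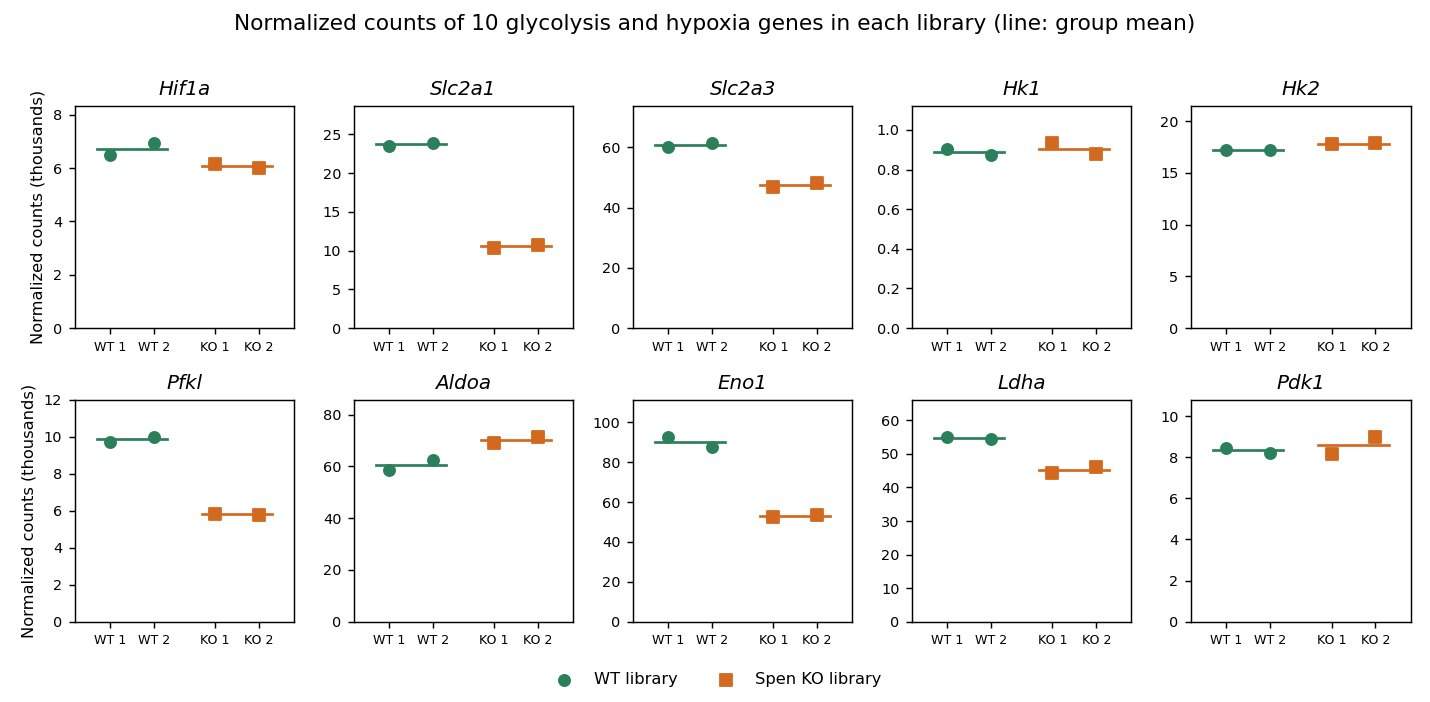
Normalized counts (in units of 1000, linear axis from 0) of each of the 10 genes in the 2 WT libraries (green circles) and the 2 *Spen* KO libraries (orange squares), with a line at each group mean. *Slc2a1*, *Pfkl* and *Eno1* show the widest gaps relative to their WT means, with KO libraries at 10406 and 10711 counts for *Slc2a1* against 23557 and 23899 in WT.

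Both glucose transporter genes were lower in the KO libraries, and *Slc2a1* had the largest log2 fold change of the 10 genes. *Slc2a1* (ENSMUSG00000028645.4, chromosome 4, 118781316 to 118809935 on the plus strand of mm9) encodes GLUT1, the widely expressed basal glucose transporter. Normalized counts were 23557 and 23899 in WT and 10406 and 10711 in KO libraries. The groups were far apart and the libraries of a group close together. *Slc2a1* fell by 55.5%, with log2 fold change -1.17 ± 0.06 (SE, DESeq2 adjusted p = 4.68e-70), and 90.9% of all genes tested had a smaller absolute change. An annotated antisense transcript, *Gm12868*, shares 3.68% of its exonic bases. *Slc2a3* (ENSMUSG00000003153.4, chromosome 6, 122677827 to 122751658, minus strand) encodes GLUT3, a high-affinity transporter. Its normalized counts were 60051 and 61453 in WT and 46692 and 48251 in KO libraries. It fell by 21.9%, with log2 fold change -0.36 ± 0.06 (SE, DESeq2 adjusted p = 1.2e-07). Its 95% interval of -0.48 to -0.23 on the log2 scale did not overlap that of *Slc2a1*, -1.30 to -1.04.

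Of 8 other Slc2a transporters listed, 5 had an adjusted p and 1 of them passed, a lower gene, which is 20% called against 32.3% of all genes. This was *Slc2a9*, a urate transporter, which was named after its values were seen because it was the 1 gene that passed, and which rests on 18 and 29 counts in WT and 5 and 8 in KO libraries. DESeq2 gave it no adjusted p once any library was left out. *Slc2a1* and *Slc2a3* were nearly equal per length in WT, at 48.99% ± 0.17 and 49.4% ± 0.1 (SD, n = 2) of the family's normalized counts per kilobase. In counts without division by length they held 27.9% and 71.3% in WT, so the near equality depends on the exonic lengths used. In the KO libraries the shares per kilobase were 35.1% ± 0.04 and 62.1% ± 0.1. No other member exceeded 2.01% in any library. The difference of each share between groups was larger than the spread between libraries, but 2 against 2 libraries cannot go below p = 0.33 in an exact permutation test, and no test is given for shares.

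The hexokinase genes *Hk2* and *Hk1*, whose products trap glucose by phosphorylation, did not pass the test. *Hk2* (ENSMUSG00000000628.4, chromosome 6, 82675019 to 82724448, minus strand), the hexokinase that HIF is known to induce, had 17190 and 17201 normalized counts in WT and 17796 and 17898 in KO libraries. KO libraries were slightly higher than both WT libraries, at 0.05 ± 0.06 (SE) on the log2 scale and a 95% interval of -0.07 to 0.18. *Hk1* (ENSMUSG00000037012.11, chromosome 10, 61731603 to 61842656, minus strand), the more constitutive form, had 902 and 874 in WT and 934 and 879 in KO libraries. The groups overlapped, and the log2 fold change was 0.03 ± 0.13 (SE). With the median of its chromosome removed, *Hk1* had a log2 fold change of 0.38 and passed (DESeq2 adjusted p = 0.0142). *2210417K05Rik* on the other strand shares 1.84% of its exonic bases. Per length, *Hk2* held 96.1% ± 0.3 (SD, n = 2) of hexokinase counts in WT and 95.1% ± 0.001 in KO libraries.

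Phosphofructokinase catalyses the committed step of glycolysis. *Pfkl* (ENSMUSG00000020277.8, chromosome 10, 77449692 to 77472828, minus strand), the liver-type subunit, had 9737 and 10012 normalized counts in WT and 5847 and 5770 in KO libraries. The groups did not overlap, and *Pfkl* fell by 41.2%, with log2 fold change -0.77 ± 0.07 (SE, DESeq2 adjusted p = 1.05e-25). Genes on chromosome 10 as a whole had a median log2 fold change of -0.35 over 613 genes, and with chromosome medians removed *Pfkl* was at -0.42 (DESeq2 adjusted p = 5.03e-08). The muscle-type subunit *Pfkm* was higher, at 2439 ± 127 against 3233 ± 159 normalized counts (SD, n = 2), which is 0.41 on the log2 scale (DESeq2 adjusted p = 6.57e-05). The platelet-type *Pfkp* had a log2 fold change of 0.16 and did not pass. In counts per kilobase, *Pfkl* made up 51.9% ± 1.8 (SD, n = 2) of the 3 subunits in WT and 34.7% ± 0.6 in KO libraries, while *Pfkp* went from 29.7% ± 1.1 to 37.6% ± 0.6 and *Pfkm* from 18.4% ± 0.7 to 27.8% ± 1.2. The order of *Pfkl* and *Pfkp* in WT depends on the division by exonic length, since in counts without it *Pfkp* was first in both groups, at 49.5% against 40.5% for *Pfkl* in WT.

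**Figure D2:**
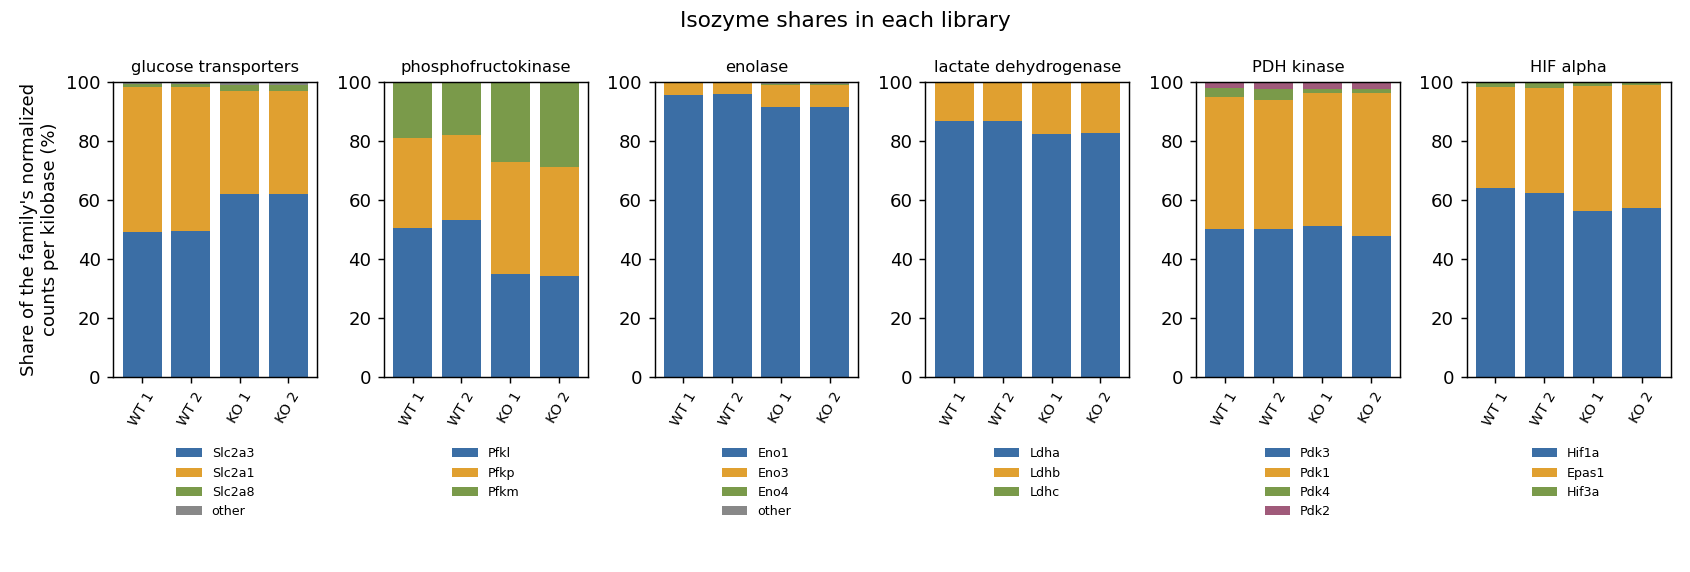
Share of each gene in its family's normalized counts per kilobase of exon (percent, stacked from 0 to 100), in each of the 2 WT and 2 *Spen* KO libraries. In KO libraries *Slc2a1* takes 35.1% of the glucose transporters and *Pfkl* 34.7% of phosphofructokinase, against 48.99% and 51.9% in WT.

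*Aldoa* (ENSMUSG00000030695.7, chromosome 7, 133938748 to 133944265, minus strand), the main aldolase outside liver and brain, was the only member that passed in the other direction. Its normalized counts were 58753 and 62595 in WT and 68973 and 71492 in KO libraries, with no overlap between groups. The log2 fold change was 0.21 ± 0.06 (SE), 15.8% higher, with adjusted p of 0.00526 by DESeq2 and 0.0347 by edgeR. This call is not firm. It was lost without WT replicate 1 (0.17, DESeq2 adjusted p = 0.15), without KO replicate 2 (0.19, 0.144) and with chromosome medians removed (0.12, 0.186), in a range of 0.000741 to 0.186 over all settings tried. Copies elsewhere cover 6.17% of its exonic words. *Aldoa* made up over 99.5% of aldolase counts per kilobase in all 4 libraries.

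*Eno1* (ENSMUSG00000063524.7, chromosome 4, 149610830 to 149622988, plus strand) encodes alpha-enolase, the ubiquitous form of the enzyme that makes phosphoenolpyruvate. It had 92773 and 87641 normalized counts in WT and 52619 and 53453 in KO libraries, the largest difference in counts among the 10 genes. *Eno1* fell by 41.2%, with log2 fold change -0.77 ± 0.06 (SE, DESeq2 adjusted p = 8.5e-32). Of its exonic words of 50 bases, 20.7% also occur elsewhere in mm9, mostly at the retrocopies *Gm13699* and *Gm5506*, so its counts are partly uncertain. These copies had at most 231 counts in any library, with log2 fold changes of -0.78 and -0.79. The neuronal form *Eno2* was higher, at 104 ± 27.0 against 266 ± 18.4 normalized counts (SD, n = 2), with log2 fold change 1.35 ± 0.28 (SE, DESeq2 adjusted p = 1.01e-05). The muscle form *Eno3* was higher by 0.31 on the log2 scale (DESeq2 adjusted p = 0.0421), but lost its call without WT replicate 2 (0.18, 0.5), KO replicate 1 (0.32, 0.22) and KO replicate 2 (0.30, DESeq2 adjusted p = 0.258), and was at 0.14 with chromosome medians removed (0.451). *Eno1* held 96.0% ± 0.3 (SD, n = 2) of enolase counts per kilobase in WT and 91.7% ± 0.03 in KO libraries.

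*Ldha* (ENSMUSG00000063229.7, chromosome 7, 54096845 to 54110997, plus strand) encodes the lactate dehydrogenase subunit that favours lactate production. Its normalized counts were 55120 and 54358 in WT and 44168 and 45971 in KO libraries. It fell by 17.7%, with log2 fold change -0.28 ± 0.06 (SE, DESeq2 adjusted p = 5.2e-05), and the groups did not overlap. Copies elsewhere cover 17% of its exonic words and 26.7% of those of *Ldhb*. *Ldhb*, the subunit that favours the reverse reaction, was higher by a log2 fold change of 0.19 ± 0.08 (SE, DESeq2 adjusted p = 0.0393), a call lost whichever library was left out (0.143 to 0.295), with chromosome medians removed (0.202) and with the low-count filter (0.0577). Per kilobase, *Ldha* held 86.9% ± 0.1 (SD, n = 2) of the lactate dehydrogenase subunits in WT and 82.7% ± 0.1 in KO libraries, and *Ldhb* 12.95% ± 0.13 and 17.1% ± 0.2.

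The regulators *Hif1a* and *Pdk1* did not pass. *Hif1a* (ENSMUSG00000021109.7, chromosome 12, 75002362 to 75048517, plus strand), the oxygen-regulated alpha subunit, had 6481 and 6944 normalized counts in WT and 6161 and 6020 in KO libraries. KO libraries lay below WT libraries, at a log2 fold change of -0.14 ± 0.08 (SE, DESeq2 adjusted p = 0.151) and a 95% interval of -0.29 to 0.0074. Chromosome 12 had a median of -0.32 over 466 genes, and with it removed the value turned to 0.18 (DESeq2 adjusted p = 0.0625). The lincRNA *Gm15283* shares 5.6% of its exonic bases on the other strand. *Pdk1* (ENSMUSG00000006494.5, chromosome 2, 71711281 to 71741915, plus strand) encodes a kinase that switches off pyruvate dehydrogenase and is a classical HIF target. It had 8459 and 8222 normalized counts in WT and 8147 and 8995 in KO libraries, which overlapped, and its log2 fold change was 0.04 with a 95% interval of -0.11 to 0.19. Among HIF alpha subunits, *Epas1* (HIF2 alpha) passed at 0.28 ± 0.09 (SE, DESeq2 adjusted p = 0.00911), and *Hif3a* passed in the other direction at -0.94 (0.00812). *Epas1* did not pass without WT replicate 1 (0.19, 0.25), KO replicate 1 (0.25, 0.17) or KO replicate 2 (0.32, DESeq2 adjusted p = 0.0594). The share of *Epas1* among the 3 subunits per kilobase was 34.99% ± 0.89 (SD, n = 2) in WT and 42.2% ± 0.5 in KO libraries. The share of *Hif1a* was 63.2% ± 1.2 and 56.8% ± 0.7.

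**Figure D3:**
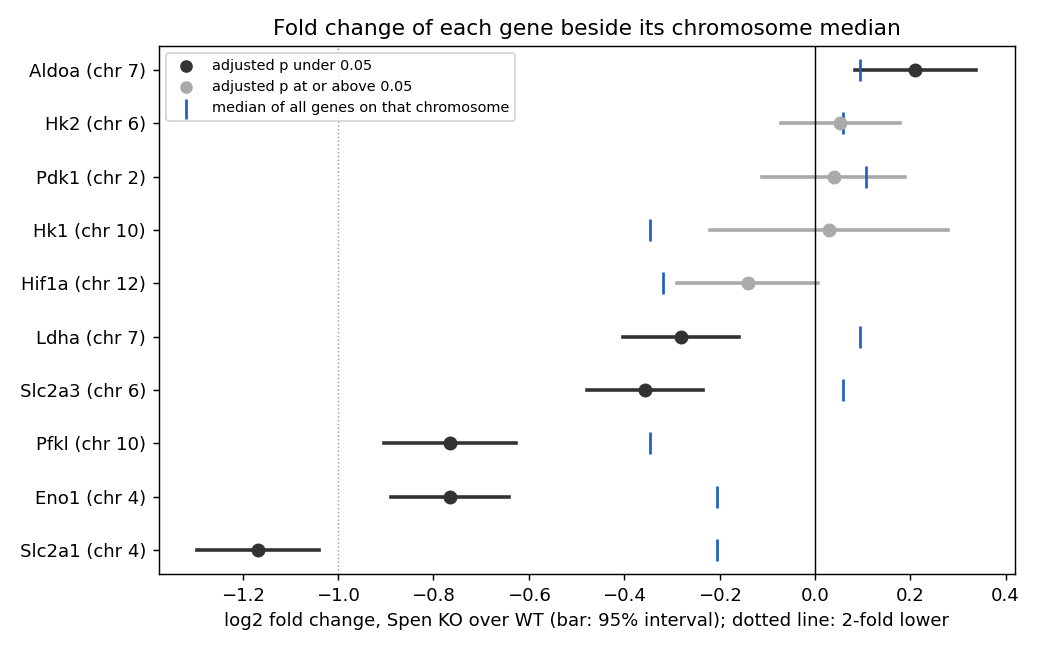
Log2 fold change (*Spen* KO over WT) of the 10 genes with 95% intervals, black where the adjusted p is under 0.05 and grey otherwise, beside the median log2 fold change of genes on the same chromosome (blue tick). *Slc2a1* at -1.17 and *Eno1* at -0.77 lie well below the median of chromosome 4, -0.21.

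Chromosome medians differ between these lines, and the 10 genes were set beside them. Medians were taken over genes with a mean of at least 50 normalized counts. On chromosome 4 the median was -0.21 over 894 genes, and with chromosome medians removed *Slc2a1* and *Eno1* were at -0.96 and -0.56, so that *Slc2a1* no longer reached a 2-fold change. Chromosomes 6 and 7 had medians of 0.06 and 0.09, and with these removed *Slc2a3* was at -0.42 and *Ldha* at -0.37. All 5 lower genes stayed past an adjusted p of 0.05 in this setting (DESeq2). Genes of the same chromosome did not share a value: *Slc2a3* and *Hk2* on chromosome 6 were at -0.36 and 0.05, *Ldha* and *Aldoa* on chromosome 7 at -0.28 and 0.21, and *Pfkl* and *Hk1* on chromosome 10 at -0.77 and 0.03. These differences within pairs were not tested.

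Ranked by WT normalized counts per kilobase, which allow genes of different length to be compared, the order was *Aldoa* (22031 ± 986, SD, n = 2), *Ldha* (18356 ± 181), *Eno1* (16770 ± 675), *Slc2a3* (8385 ± 137), *Slc2a1* (8317 ± 84.8), *Hk2* (2881 ± 1.2), *Pfkl* (2247 ± 44.3), *Hif1a* (1138 ± 55.6), *Pdk1* (1072 ± 21.5) and *Hk1* (104 ± 2.25). Per kilobase, *Slc2a3* and *Slc2a1* did not differ beyond their spread in WT. Without division by length, *Slc2a3* had 60752 ± 992 normalized counts in WT and *Slc2a1* 23728 ± 242 (SD, n = 2). *Hif1a* and *Pdk1* were close per kilobase, with their means apart by little more than the SD of *Hif1a*. In the KO libraries *Slc2a3* stood at 6552 ± 152 and *Slc2a1* at 3701 ± 75.5, and *Pdk1* at 1102 ± 77.1 was next to *Hif1a* at 1033 ± 16.9. Lengths are those of all annotated exons of a gene together, which understates the level of genes with many alternative exons.

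Summed over isozymes, the steps of the pathway differed unequally. The steps were grouped after the values were seen and are given without a test. Counts per kilobase of 10 listed glucose transporters together, without *Slc2a7* and *Slc2a13*, which the shares above include, were 16791 and 17118 in WT and 10378 and 10697 in KO libraries, a difference of -37.8%. Enolase, at 17980 and 16913 against 10640 and 10808, differed by -38.5%. Phosphoglycerate kinase, lactate dehydrogenase and phosphofructokinase differed by -17.7%, -13.5% and -12.0%. Phosphoglycerate mutase (32.2%), aldolase (15.6%), glyceraldehyde-3-phosphate dehydrogenase (10.7%), glucose-6-phosphate isomerase (7.07%) and hexokinase (4.92%) were higher in both KO libraries than in both WT libraries. Normalized counts of 70.2% of all genes tested also did not overlap between groups. Among the main genes of these higher steps, *Gpi1* (DESeq2 adjusted p = 0.248), *Gapdh* (0.0715) and *Hk2* (0.588) did not pass, while *Aldoa* and *Pgam1* did. With chromosome medians removed, *Pgam1* was at 0.02 on the log2 scale (DESeq2 adjusted p = 0.866). Triosephosphate isomerase and pyruvate kinase overlapped between groups. Copies elsewhere cover 91.1% of the exonic words of *Pgam1*, 68.3% of *Pgk1*, 50.2% of *Gapdh* and 40.2% of *Pkm2*, so the sums for these 4 steps are uncertain.

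**Figure D4:**
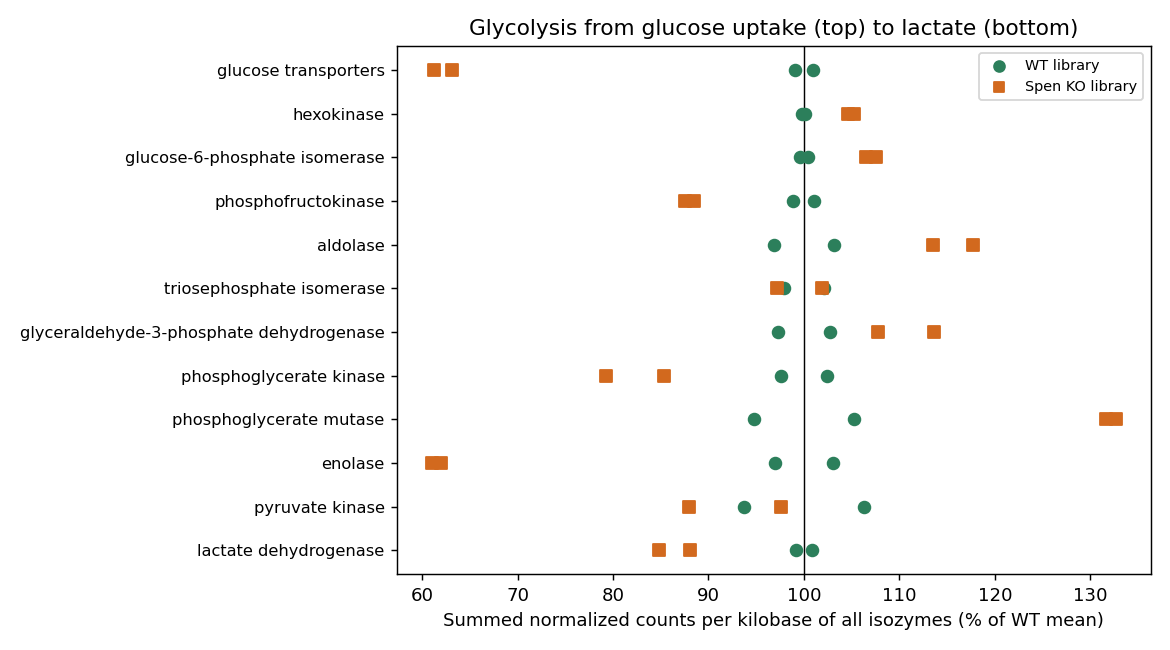
Normalized counts per kilobase summed over the isozymes of each glycolytic step, in percent of the WT mean, for each WT library (green circles) and *Spen* KO library (orange squares). Glucose transport and enolase stand lowest, at -37.8% and -38.5%, while phosphoglycerate mutase stands highest at 32.2%.

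Of 19 other enzymes of glycolysis listed, 16 had an adjusted p, of which 6 were higher, 1 lower and 9 did not pass, with a median log2 fold change of 0.15. The share called, 43.8%, lies between those of all genes (32.3%) and of genes averaging 1000 counts or more (49%). The lower gene was *Pgk1* (phosphoglycerate kinase, X-linked), which fell from a WT mean of 19191 ± 652 (SD, n = 2) to 15793 ± 822 normalized counts in KO, which is -0.28 on the log2 scale (DESeq2 adjusted p = 0.000396). Its call was lost without WT replicate 1 (-0.24, adjusted p = 0.0515) and without KO replicate 1 (-0.22, 0.0745) in DESeq2. The higher genes included *Eno2*, *Pfkm*, *Hk3*, *Pgam1* and *Eno3*. *Hk3* rests on at most 47 counts in any library and lost its call without WT replicate 1 (DESeq2 adjusted p = 0.221) and without WT replicate 2 (0.201). *Pgam1*, with a log2 fold change of 0.41, lies on chromosome 19, whose median was 0.38, and was at 0.02 with chromosome medians removed (DESeq2 adjusted p = 0.866). *Gapdh* was at 0.15 and *Pkm2*, pyruvate kinase, at -0.11, and neither passed. With chromosome medians removed, *Pkm2* was at -0.24 and passed (DESeq2 adjusted p = 0.0107).

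Fructose 2,6-bisphosphate, the activator of phosphofructokinase, is made and removed by Pfkfb enzymes. Of 5 regulators 2 were higher, 1 lower and 2 did not pass, which is 60% called against 32.3% of all genes and 49% of those averaging 1000 counts or more. *Pfkfb1* was at 0.67 ± 0.13 (SE, DESeq2 adjusted p = 2.96e-06) and *Pfkfb3*, the most kinase-biased form, at 0.49 ± 0.12 (0.000325). *Pfkfb2* fell from a WT mean of 804 ± 8.37 (SD, n = 2) to 503 ± 22.1 normalized counts in KO, at -0.68 ± 0.14 (SE, DESeq2 adjusted p = 2.27e-05). The call of *Pfkfb3* was lost without KO replicate 1 (0.46, DESeq2 adjusted p = 0.0598).

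In the list of lactate and pyruvate fate, 4 of 17 genes were higher, 4 lower and 9 did not pass, with a median of 0.01. This is 47.1% called, against 32.3% of all genes and 49% of genes averaging 1000 counts or more, and with any library left out 1 to 2 were higher and 2 lower. *Pdha1*, the catalytic E1 alpha subunit of pyruvate dehydrogenase, fell from a WT mean of 18957 ± 479 (SD, n = 2) to 10602 ± 615 normalized counts in KO, with log2 fold change -0.84 ± 0.07 (SE, DESeq2 adjusted p = 4.28e-30). It is X-linked, and the X median was -0.06 over 484 genes. *Map3k15* on the other strand shares 16% of its exonic bases. *Pdk4*, a kinase of the same family as *Pdk1*, fell by 1.30 on the log2 scale (DESeq2 adjusted p = 6.79e-06) from a low level of 287 ± 43.9 normalized counts (SD, n = 2). Of other subunits of the complex, *Pdhx* was at 0.48 (9.59e-07), *Pdhb* at 0.26 (0.000955), *Dlat* at 0.21 (0.0285) and *Dld* at -0.24 (DESeq2 adjusted p = 0.00584). *Dld* lies on chromosome 12 and was at 0.081 with chromosome medians removed (DESeq2 adjusted p = 0.475). *Dlat* and *Dld* lost their calls whichever library was left out, with adjusted p of 0.0934 to 0.279 and 0.0851 to 0.129, and *Dlat* was at 0.07 with chromosome medians removed (DESeq2 adjusted p = 0.555). Copies elsewhere cover 34.1% of the exonic words of *Pdhb*, which lost its call without WT replicate 2 (0.24, 0.0566) and without KO replicate 2 (0.23, DESeq2 adjusted p = 0.0906). The lactate exporters *Slc16a1* and *Slc16a3* were at -0.01 and 0.10 and did not pass, and *Csnk1d* on the other strand shares 15.6% of the exonic bases of *Slc16a3*.

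**Figure D5:**
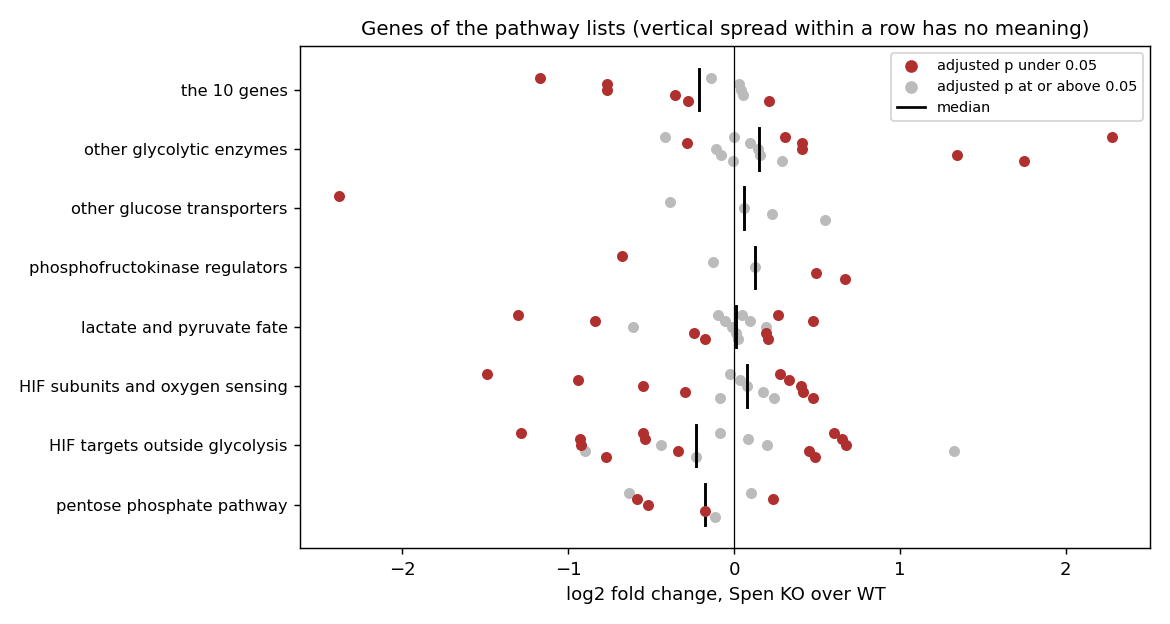
Log2 fold changes (*Spen* KO over WT) of the 10 genes and of the genes in 7 lists of related genes, red where the adjusted p is under 0.05 and grey otherwise, with a black line at each median. The medians of the 10 genes (-0.21) and of HIF targets outside glycolysis (-0.23) are the lowest of the 8 groups, and that of the other glycolytic enzymes (0.15) the highest.

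Of 15 genes of HIF subunits and oxygen sensing, 5 were higher, 4 lower and 6 did not pass, with a median of 0.08. Over all genes 16.4% were higher and 15.8% lower, and 49% of genes averaging 1000 counts or more were called in either direction. With any library left out, 3 to 5 genes of this list were higher and 1 to 2 lower. *Egln3*, a HIF prolyl hydroxylase that is itself a HIF target, fell from a WT mean of 611 ± 9.50 (SD, n = 2) to 218 ± 50.2 normalized counts in KO, with log2 fold change -1.49 ± 0.20 (SE, DESeq2 adjusted p = 1.02e-12). *Egln3* lies on chromosome 12 and was at -1.17 with chromosome medians removed (DESeq2 adjusted p = 7.59e-08). *Hif3a* and *Arnt2* were at -0.94 (0.00812) and -0.55 (DESeq2 adjusted p = 0.0315). *Cul2*, of the Vhl ubiquitin ligase, was at 0.48 (4.04e-08), *Arnt* at 0.41 (1.88e-06) and *Hif1an*, which hydroxylates an asparagine of HIF alpha, at 0.40 (DESeq2 adjusted p = 2.45e-07). *Hif1an* lies on chromosome 19 and was at 0.02 with chromosome medians removed (DESeq2 adjusted p = 0.898). *Arnt2* lost its call whichever library was left out (0.165 to 0.317), and *Hif3a* lost it without WT replicate 2 (-0.68, 0.332) and without KO replicate 2 (-0.66, DESeq2 adjusted p = 0.247).

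Of 21 HIF targets outside glycolysis listed, 19 had an adjusted p, and 5 were higher, 7 lower and 7 did not pass, with a median of -0.23. This is 63.2% of those tested, against 32.3% of all genes and 49% of genes averaging 1000 counts or more. The 7 lower calls dropped to 4 whichever library was left out. *Bhlhe40*, a transcriptional repressor, *Stc2*, a secreted glycoprotein, and *Ddit4*, an inhibitor of mTORC1, fell by 1.28, 0.93 and 0.93 on the log2 scale, with DESeq2 adjusted p of 2.38e-07, 9.62e-10 and 2.05e-15. *Ddit4* went from 1834 ± 94.0 to 966 ± 40.8 normalized counts (SD, n = 2). It lies on chromosome 10 and was at -0.58 with chromosome medians removed (DESeq2 adjusted p = 2.54e-06). *Mxi1*, a Myc antagonist, *Ak4*, a mitochondrial adenylate kinase, and *Kdm3a*, a histone H3K9 demethylase, rose by 0.68, 0.65 and 0.60, with DESeq2 adjusted p of 1.02e-07, 9.4e-20 and 1.17e-14. *Mxi1* lies on chromosome 19 and was at 0.29 with chromosome medians removed (DESeq2 adjusted p = 0.0466). Copies elsewhere cover 20.2% of the exonic words of *Ak4*. The classical target *Vegfa* fell by 0.34 (DESeq2 adjusted p = 0.00369), was named after its values were seen, and lost its call whichever library was left out (0.0644 to 0.132) and with chromosome medians removed (-0.20, 0.127).

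In the pentose phosphate pathway, which branches from glycolysis after hexokinase, 3 of 7 genes were lower, 1 higher and 3 did not pass, with a median of -0.18. This is 57.1% called, against 32.3% of all genes and 49% of genes averaging 1000 counts or more. *Pgd*, 6-phosphogluconate dehydrogenase, fell from a WT mean of 9549 ± 79.3 (SD, n = 2) to 6363 ± 311 normalized counts in KO, with log2 fold change -0.59 ± 0.07 (SE, DESeq2 adjusted p = 3.96e-14). *Pgd* lies on chromosome 4 and was at -0.38 with chromosome medians removed (DESeq2 adjusted p = 2.99e-06). *Pgls* and *Tkt* were at -0.52 (8.4e-05) and -0.18 (0.0339), and *Taldo1* at 0.23 (DESeq2 adjusted p = 0.00545). *Tkt* lost its call whichever library was left out (0.0768 to 0.377) and with upper-quartile factors (-0.14, DESeq2 adjusted p = 0.125), and *Taldo1* without WT replicate 2 (0.21, 0.113), without KO replicate 2 (0.18, 0.206) and with chromosome medians removed (0.14, DESeq2 adjusted p = 0.147). *Pgls* shares 20.6% of its exonic bases with *Fam129c* on the same strand.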

How the data were processed

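RNA-seq libraries were made with a stranded kit after depletion of ribosomal RNA. Per the study's methods and the labels, the authors mapped paired reads to mouse build mm9 with STAR and assigned them to GENCODE vM1 genes with featureCounts. The authors deposited these counts without normalization. Tool versions, and how strand and multi-mapping reads were treated in counting, were not given in the sources used here, so exonic overlaps of the 10 genes, and those over 10% for other named genes, are given beside values. Groups and replicate numbers come from the sample titles, and no column was without a sample.

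Differences between groups were tested on the counts by DESeq2 1.42.0 under R 4.3.3 (Wald test, median-of-ratios size factors, Benjamini-Hochberg adjustment over 17710 genes). DESeq2 is the tool that the study's methods name. Fold changes are KO over WT. Genes passed at an adjusted p under 0.05. Other settings were size factors from TMM or the upper quartile, a filter of 10 counts in 2 libraries, edgeR 4.0.16 (quasi-likelihood), a replicate block, removal of chromosome medians, and each library left out. On simulated counts for WT against KO (18211 genes tested), DESeq2 recovered 74% of 104 genes changed 2-fold and 94.8% of 96 changed 4-fold, with 9 false calls. Counts per kilobase are normalized counts over exonic length. Copies are exonic words of 50 bases found elsewhere in the NCBIM37 (mm9) sequence. Promoter windows are from RefSeq.

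The 10 genes and the lists were chosen with earlier results of these data known. Named genes were the 10 genes, *Spen*, up to 3 passing genes per direction in each list (mean of at least 50, largest absolute change) and isozymes of their families. Other names are background or were chosen after values were seen. A gene that the rule names is not reported here.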

Additional observations from a re-analysis of the deposited data

How the results depend on the processing

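Under TMM and upper-quartile factors, the low-count filter and edgeR, the 10 genes gave 5 lower and 1 higher. The same 5 genes stayed lower in all settings run. With chromosome medians removed, the 1 higher member was *Hk1* in place of *Aldoa*, 0 of the 10 genes reached the study's 2-fold threshold, and *Hif1a* (0.18), *Hk2* (-0.0058), *Pdk1* (-0.068) and *Dld* (0.081) turned direction, while the other glycolytic enzymes had 2 lower, lactate and pyruvate fate 2 lower and the pentose phosphate pathway 0 higher. In that setting *Pgam1* (0.02, DESeq2 adjusted p = 0.866) and *Eno3* (0.14, 0.451) lost their higher calls, and *Pkm2* passed as lower (-0.24, 0.0107). Among HIF targets, *P4ha1* (-0.20, DESeq2 adjusted p = 0.226) and *Vegfa* (-0.20, 0.127) lost their lower calls, and *Vldlr* gained one (-0.83, 0.00854). With edgeR, 2 of the other glucose transporters were lower.

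Libraries with the same number were not treated as pairs, because their deviations from the group means correlated at -0.017 over 13306 genes. With the replicate block, 0 of the 10 genes were higher (*Aldoa*, DESeq2 adjusted p = 0.0758) and 1857 of all genes were higher, against 2909 without it. Lists under the block had 0 other glucose transporters lower, 2 higher and 2 lower in lactate and pyruvate fate, 2 lower in oxygen sensing, 4 lower among HIF targets and 0 higher in the pentose phosphate pathway.

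Leaving out each library left 3, with the lone library assumed to vary like the other group, and all-gene counts fell to between 1563 and 1815 higher and 1572 and 1737 lower. Members gave 5 lower each time, 0 to 1 higher and 1 at the study's threshold. *Hk1* ranged from -0.0075 (without KO replicate 1) to 0.077, and *Pdk1* from -0.030 (without KO replicate 2) to 0.12. List counts ranged from 0 to 1 lower for other glycolytic enzymes, 0 to 0 lower for transporters (no adjusted p for *Slc2a9*), 1 to 2 higher for phosphofructokinase regulators, 1 to 2 higher and 2 to 2 lower for lactate and pyruvate fate, 3 to 5 higher and 1 to 2 lower for oxygen sensing, 4 to 4 lower for HIF targets and 0 to 1 higher for the pentose phosphate pathway. Differences in share without division by length were -9.90 points for *Slc2a1* and -14.7 for *Pfkl*, in the same direction. The cause of these changes was not tested beyond the smaller number of libraries.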
